A study of Mus musculus with 11 samples.

Results

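The miR-148/miR-152 family (mmu-miR-148a-3p, mmu-miR-148b-3p and mmu-miR-152-3p) and the miR-130/miR-301 family (mmu-miR-130a-3p, mmu-miR-130b-3p, mmu-miR-301a-3p and mmu-miR-301b-3p) are groups of microRNAs whose seeds share most of their bases. Their 7 members were taken by family name from the 1907 mature miRNA names counted in each library. No measured value entered this rule, but the list was chosen with earlier results of these data known. All 7 passed the filter on low counts, which kept 479 of the 1907 names. They were compared between brain cortex of mice with a stroke and of mice with a sham operation. None of the 7 passed the test between the groups after adjustment for the number of miRNAs tested. miR-130b-3p had the highest fold change. Its ratio to miR-130a-3p, from which it differs at 2 bases, differed between the groups in the main test. That difference rests on 9 to 30 counts of miR-130b-3p in each library. The call was lost in most fits that left out a library, but with a sham library left out this pair alone could not have passed.

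The libraries came from male Balb/cOlaHsd mice, 3 months old by the labels and 3 to 6 months by the study's methods, with tissue taken 3 days after surgery from perfused brains. In the pMCAO group (n = 5 libraries) the left middle cerebral artery was closed permanently by thermocoagulation, a stroke model without reperfusion, and in the sham group (n = 6) the same artery was exposed and lifted but not closed. The labels call the tissue cortex in sham and peri-ischemic cortex in pMCAO, the region around the ischemic core, while the methods use the second term for both. Libraries of a group are numbered as replicates and neither source says that each came from its own mouse, so p-values measure the spread between these libraries, which may be partly technical.

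A microRNA guides Argonaute to messenger RNAs mainly through its seed, bases 2 to 8 counted from the 5′ end, and lowers the stability and translation of messages that pair with it. miRNAs with the same seed therefore share most predicted targets. The miR-148/miR-152 family is known as a repressor of the DNA methyltransferase DNMT1, and the miR-130/miR-301 family as a repressor of PPARG, a nuclear receptor of fat cell differentiation.

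The mature sequences of 6 of the 7 members were found in RefSeq (GRCm38.p6) and are shown because the seed defines the families and the bases outside it tell the members apart. Capitals mark the seed.

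miR-148a-3p: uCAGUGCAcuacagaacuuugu

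miR-148b-3p: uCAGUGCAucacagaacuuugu

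miR-152-3p: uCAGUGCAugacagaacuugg

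miR-130a-3p: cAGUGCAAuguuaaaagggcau

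miR-130b-3p: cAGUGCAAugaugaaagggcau

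miR-301a-3p: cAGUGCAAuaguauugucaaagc

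The 3 members of the miR-148/miR-152 family had the seed CAGUGCA and the 3 members of the miR-130/miR-301 family shown had AGUGCAA, so that both seeds held the same 6 bases, AGUGCA, placed 1 base apart. With positions counted from 1 at the 5′ end, miR-148a-3p and miR-148b-3p differed at 2 of 22 bases (C9U and U10C). miR-148b-3p and miR-152-3p differed at 2 of the 21 bases compared (C10G and U20G). miR-130a-3p and miR-130b-3p also differed at 2 of 22 bases (U11A and A13G), whereas miR-130a-3p and miR-301a-3p had the same base at 12 of 22 positions. How the counting treated reads that match more than 1 of these near-identical sequences is not given in the sources used here, so their separate counts are uncertain. The counts of miR-130b-3p were 1.33% to 3.40% of those of miR-130a-3p in a library.

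Few other miRNAs carry the shared bases. Among 1679 mature names with a RefSeq sequence, 12 (0.715%) held AGUGCA within bases 2 to 8, on the strand of the miRNA itself, and 6 of these were the members shown. Of the other 6, miR-130c, miR-291b-3p, miR-6341, miR-6389 and miR-721 had 0 counts in all 11 libraries. The remaining one, miR-350-5p, had between 0 and 4 counts. Names without a RefSeq sequence could not be searched.

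The hairpins lie at 6 separate places of the genome (GRCm38, named mm10 in the processing notes). Mir148a is at chr6:51269812-51269910 on the minus strand and Mir130a at chr2:84741115-84741178 on the minus strand, and neither overlapped another annotated gene. Mir148b lies at chr15:103285125-103285221 (plus strand) in intron 1 of Copz1, and Mir152 at chr11:96850393-96850465 (plus strand) in intron 1 of Copz2. Copz1 and Copz2 encode alternative zeta subunits of the COPI vesicle coat, so these hairpins of one seed family sit in paired positions of paralogous genes. Mir301, the hairpin of miR-301a-3p, is at chr11:87113004-87113089 (plus strand) in intron 1 of Ska2, a gene of the spindle and kinetochore complex. Mir130b at chr16:17124061-17124142 and Mir301b at chr16:17124400-17124496, both on the minus strand, lie 258 bases apart in intron 1 of 2610318N02Rik. These were the only member hairpins with another miRNA hairpin within 10 kb, and none of the hairpins overlapped an exon of its host gene.

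The sham libraries held 1429037 to 2319810 counts and the pMCAO libraries 744877 to 1411620, so pMCAO values rest on fewer reads. Levels are given as CPM, counts scaled to a common library size, here with the TMM method, which corrects for differences in composition between libraries. The 5 miRNAs listed as typical of neurons summed to 276188 CPM or more in every library, so the tissue carried the neuronal markers that its label calls for. The 5 listed for myeloid cells were all called higher in pMCAO (edgeR, adjusted p under 0.05), with a sum of 326 to 790 CPM in sham and 870 to 3982 CPM in pMCAO, highest in pMCAO replicate 2. Of the 5 listed for erythrocytes, miR-144-5p, miR-486a-5p and miR-486b-5p were at 0 in at least 1 library, and the sum was 5370 CPM in sham replicate 1, 49.1 to 272 CPM in the other sham libraries and 639 to 4731 CPM in pMCAO. By the same edgeR test, 1 of 5 neuron and 1 of 3 oligodendrocyte miRNAs were called lower in pMCAO, 1 of 4 listed for mural cells and fibroblasts was called higher, and 0 of 2 tested were called for each of erythrocytes, lymphocytes and endothelial cells. In bulk tissue, fewer cells of a type and less of a miRNA per cell cannot be told apart.

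The families differed widely in abundance, and each was dominated by 1 or 2 members. The 4 members of the miR-130/miR-301 family summed to 1290 ± 182 CPM in sham (SD, n = 6) and 1526 ± 149 CPM in pMCAO (n = 5). The 3 members of the miR-148/miR-152 family summed to 319 ± 53.4 CPM in sham and 335 ± 37.8 CPM in pMCAO. miR-130a-3p and miR-301a-3p made up 50.8% ± 1.87 and 47.2% ± 2.02 of the miR-130/miR-301 sum in sham, and miR-148b-3p made up 52.1% ± 2.90 of the miR-148/miR-152 sum. Both family sums overlapped between the groups, at 980 to 1506 CPM in sham against 1330 to 1672 CPM in pMCAO for miR-130/miR-301 and at 266 to 391 CPM against 292 to 391 CPM for miR-148/miR-152.

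In sham, mean levels fell in the order miR-130a-3p, miR-301a-3p, miR-148b-3p, miR-148a-3p, miR-152-3p, miR-301b-3p and miR-130b-3p. The order of the 6 members with a known length (21 to 23 bases) was the same in CPM per base. Neighbours in this order whose ranges overlapped were miR-130a-3p and miR-301a-3p, miR-148a-3p and miR-152-3p, and miR-301b-3p and miR-130b-3p. In pMCAO the last pair changed places, but miR-130b-3p was above miR-301b-3p in only 2 of 5 libraries. miR-130a-3p was above miR-301a-3p in 5 of 6 sham libraries and in 1 of 5 pMCAO libraries, with overlapping ranges in both groups. In pMCAO replicate 4 the 2 were tied at 854 counts each.

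**Figure D1:**
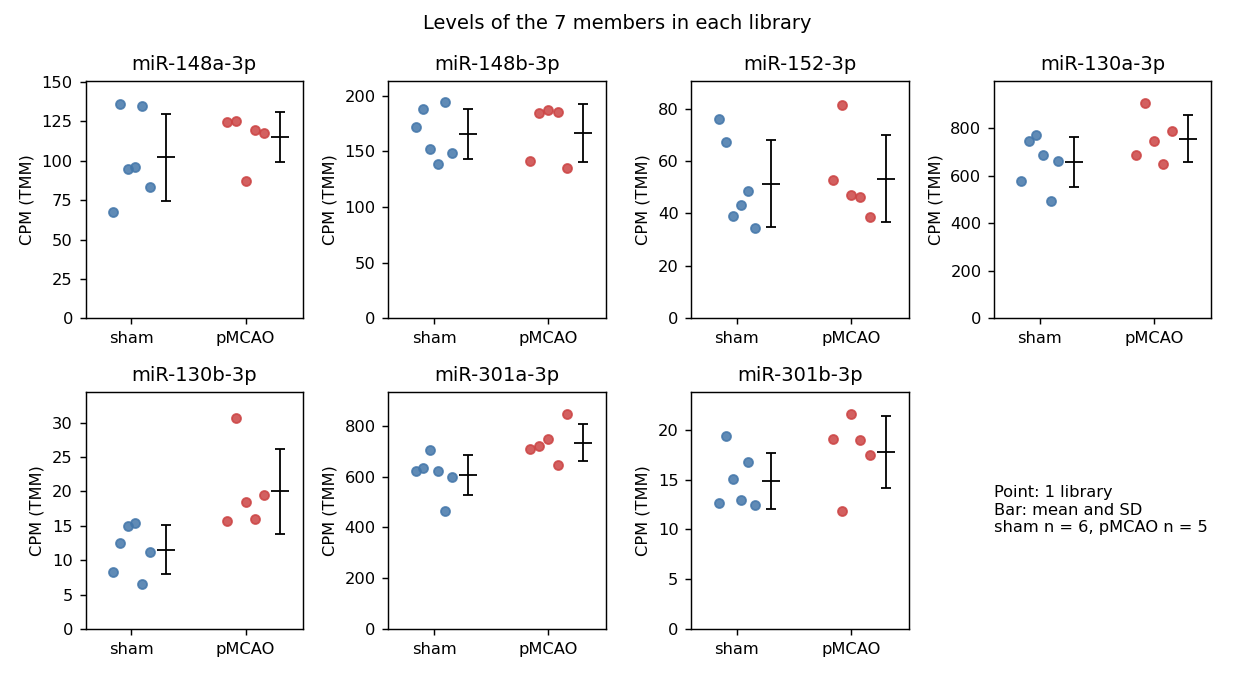
Each panel shows the level of 1 member in TMM-scaled CPM on a linear axis from 0, with 1 point for each sham (blue, n = 6) and pMCAO (red, n = 5) library and the mean and SD beside the points. The groups overlap in every panel but that of miR-130b-3p, where the highest sham library is at 15.4 CPM and the lowest pMCAO library at 15.7 CPM.

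The test across all 479 miRNAs asked whether any member differed between pMCAO and sham. The quasi-likelihood test of edgeR, adjusted by Benjamini-Hochberg over all tested miRNAs, called 0 of the 7 members, against 34 of all 479 miRNAs (7.10%). At an unadjusted p under 0.05 the same test counted 2 of the 7, miR-130b-3p and miR-301a-3p, against 117 of 479 (24.4%), and DESeq2 also called 0 of the 7 after adjustment. The estimated log2 fold change was above 0 for 7 of 7 members and for 50.3% of the miRNAs tested. It was above 0 for 5 of 7 members with the replicate number as a block and without sham replicate 3, 4 or 6 or pMCAO replicate 2, and for 6 of 7 with no filter and without pMCAO replicate 3 or 4. The members' median was 0.20, beside 0.00 over all tested, with family medians of 0.04 for miR-148/miR-152 and 0.27 for miR-130/miR-301. Without pMCAO replicate 2 the members' median was 0.13, and with total counts alone it was 0.39.

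Of the miR-148/miR-152 family, miR-148a-3p has been studied in liver as a repressor of the LDL receptor. Its level in sham was 67.8 CPM at the lowest, 95.5 at the median and 136 at the highest library, and pMCAO replicates 1 to 5 were at 125, 125, 87.2, 120 and 118 CPM. All pMCAO libraries lay inside the sham range, with 4 of them close together near its upper end. The means were 102 ± 27.7 CPM in sham and 115 ± 15.8 CPM in pMCAO, with a log2 fold change of 0.17 (SE 0.19, 95% interval -0.24 to 0.57, edgeR adjusted p = 0.672).

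miR-148b-3p, from the intron of Copz1, showed the closest agreement of the group means. In sham it ran from 139 CPM through a median of 162 to 194 CPM, and in pMCAO it was at 142, 184, 187, 185 and 135 CPM in replicates 1 to 5. The libraries of both groups were thus spread over nearly the same range, with 1 pMCAO library below it. Its log2 fold change was 0.01 (SE 0.14, 95% interval -0.29 to 0.30, edgeR adjusted p = 0.992), and the sign turned under some alternatives given in the closing section.

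miR-152-3p, from the matching intron of Copz2, was the least abundant member of its family. Sham libraries ran from 34.3 CPM through a median of 45.9 to 76.0 CPM, and pMCAO replicates 1 to 5 were at 52.8, 81.5, 47.2, 46.2 and 38.8 CPM. The highest value of each group stood apart from most of the rest, in sham replicate 1 and pMCAO replicate 2. The log2 fold change of 0.04 had a wide interval (SE 0.25, 95% interval -0.49 to 0.57, edgeR adjusted p = 0.987), and it was 0.19 without sham replicate 1 and -0.16 without pMCAO replicate 2. Sham replicate 1 was also the sham library with the high erythrocyte sum, and pMCAO replicate 2 the library with the highest myeloid sum. Whether these had a part in the values of miR-152-3p was not tested.

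Of the miR-130/miR-301 family, miR-130a-3p is known in endothelial cells as a repressor of the homeobox genes GAX and HOXA5. Its level ran from 492 CPM through a median of 674 to 773 CPM in sham, and was 688, 904, 745, 647 and 790 CPM in pMCAO replicates 1 to 5. Only 2 pMCAO libraries were above the sham range. The means of 656 ± 106 and 755 ± 99.4 CPM gave a log2 fold change of 0.20 (SE 0.13, 95% interval -0.09 to 0.49, edgeR adjusted p = 0.418).

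miR-301a-3p, described as a repressor of the NF-kappaB repressing factor NKRF, was nearly as abundant. Sham libraries ran from 465 CPM through a median of 622 to 703 CPM, and pMCAO replicates 1 to 5 were at 707, 719, 748, 647 and 846 CPM. In 4 of 5 pMCAO libraries the level was above every sham library, and pMCAO replicate 4 was inside the sham range. The log2 fold change was 0.27 (SE 0.12, 95% interval 0.02 to 0.52), with an edgeR p of 0.0362 before and 0.172 after adjustment. An exact permutation test of the same levels, two-sided over all arrangements of the libraries, gave an unadjusted p = 0.0130.

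miR-130b-3p, which shares the seed of miR-130a-3p, had the lowest mean level of the 7 in sham and the highest fold change. Sham libraries ran from 6.55 CPM through a median of 11.9 to 15.4 CPM, and pMCAO replicates 1 to 5 were at 15.7, 30.7, 18.4, 15.9 and 19.4 CPM. It was the 1 member of 7 whose groups did not overlap, against 36 of the 479 miRNAs tested (7.52%), and the gap between the groups was narrow. The log2 fold change was 0.78 (SE 0.26, 95% interval 0.21 to 1.34), which corresponds to a fold between 1.16 and 2.53, with an edgeR p of 0.0106 before and 0.0942 after adjustment. The exact permutation test, two-sided, gave an unadjusted p = 0.0108. For the members other than miR-130b-3p and miR-301a-3p, this permutation test gave unadjusted p-values from 0.154 (miR-130a-3p) to 0.970 (miR-148b-3p).

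These values of miR-130b-3p rest on 9 to 30 counts in each library. The lowest, 9 counts in a sham library, has an exact Poisson 95% interval of 4.12 to 17.1 counts, which covers counting error only. Counting alone would give a coefficient of variation of 23.0% in sham and 20.9% in pMCAO, beside observed values of 31.1% and 30.8%. Its highest level was in pMCAO replicate 2, which was the smallest library and had the highest myeloid sum, and without it the log2 fold change was 0.59 (edgeR adjusted p = 0.276). The part of myeloid cells in this difference was not tested.

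miR-301b-3p comes from the same intron as miR-130b-3p. Sham libraries ran from 12.4 CPM through a median of 14.0 to 19.4 CPM, and pMCAO replicates 1 to 5 were at 19.1, 11.8, 21.6, 19.0 and 17.5 CPM. The groups overlapped, and pMCAO replicate 2, the highest library for miR-130b-3p, was the lowest for miR-301b-3p. The log2 fold change was 0.27 (SE 0.21, 95% interval -0.18 to 0.71, edgeR adjusted p = 0.495), on 10 to 39 counts in each library.

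**Figure D2:**
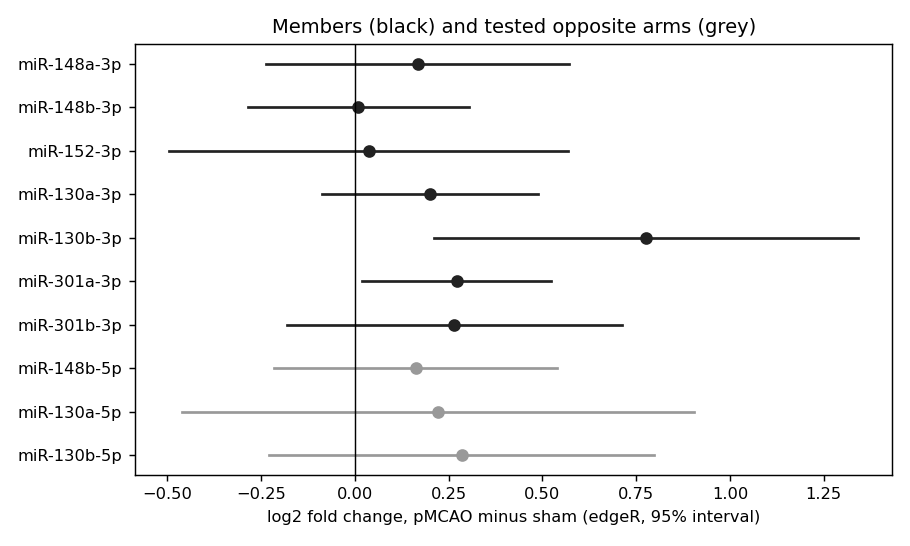
Points show the log2 fold change of pMCAO minus sham for the 7 members (black) and the 3 opposite arms that passed the filter (grey), with lines for the 95% interval from edgeR and a vertical line at 0. All points lie at or above 0, and the intervals that leave out 0 are those of miR-130b-3p (0.21 to 1.34) and miR-301a-3p (0.02 to 0.52), neither of which passed after adjustment.

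The ratio of a pair of members within a library does not depend on how the library is scaled, so it asks whether the counts of members of a seed family moved unequally. For near-identical members it still depends on how reads matching both were counted, which is not given in the sources used here. All 9 pairs within the families were compared as log2 count ratios (0.5 count added to each) by exact permutation tests, two-sided, with p-values adjusted over the 9 pairs. The ratio of miR-130a-3p to miR-130b-3p was 5.84 ± 0.26 in sham, from 5.45 to 6.15. In pMCAO replicates 1 to 5 it was 5.40, 4.85, 5.31, 5.31 and 5.32, so every pMCAO library was below every sham library. The difference was -0.60 (unadjusted 95% interval -0.93 to -0.28, exact permutation p = 0.00433, adjusted p = 0.0390). Expressed as a share, miR-130b-3p had 1.33% to 2.24% of the counts of miR-130a-3p in sham and 2.29% to 3.40% in pMCAO.

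This call was lost when any 1 library other than sham replicate 4 was left out. In the fits that lost it the differences lay between -0.64 and -0.51, with exact permutation adjusted p up to 0.0857. Without sham replicate 4 the difference was -0.68. With 5 libraries against 5, 1 pair alone cannot reach an adjusted p below 0.0714 over 9 pairs. The fits without sham replicate 1, 2, 3, 5 or 6 each stood at this limit, so they could not show whether the call would hold. With a pMCAO library left out, 6 against 4, this limit is 0.0429, and each of the 5 fits gave an adjusted p of 0.0857 (exact permutation test). Without pMCAO replicate 2 the difference was -0.51.

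The other 8 pairs did not pass after adjustment. The ratio of miR-130b-3p to miR-301a-3p was 0.53 above that of sham in the pMCAO mean, with overlapping groups (interval 0.07 to 1.01, exact permutation p = 0.0173, adjusted p = 0.0779). Relative to miR-301b-3p, encoded 258 bases away, its difference was similar in size but less certain, at 0.55 (interval -0.25 to 1.42, exact permutation adjusted p = 0.552), and pMCAO replicate 2 stood at 1.34 against 0.15 or less in the other pMCAO libraries. The ratio of the abundant members miR-130a-3p and miR-301a-3p differed by -0.07 (interval -0.23 to 0.12, exact permutation adjusted p = 0.830), the narrowest interval of the 9. Within miR-148/miR-152, the difference was 0.20 for miR-148a-3p to miR-148b-3p (interval -0.27 to 0.68), 0.14 for miR-148a-3p to miR-152-3p (-0.48 to 0.87) and -0.06 for miR-148b-3p to miR-152-3p (-0.56 to 0.44). Unequal change of up to these bounds could not be told from none in these libraries.

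**Figure D3:**
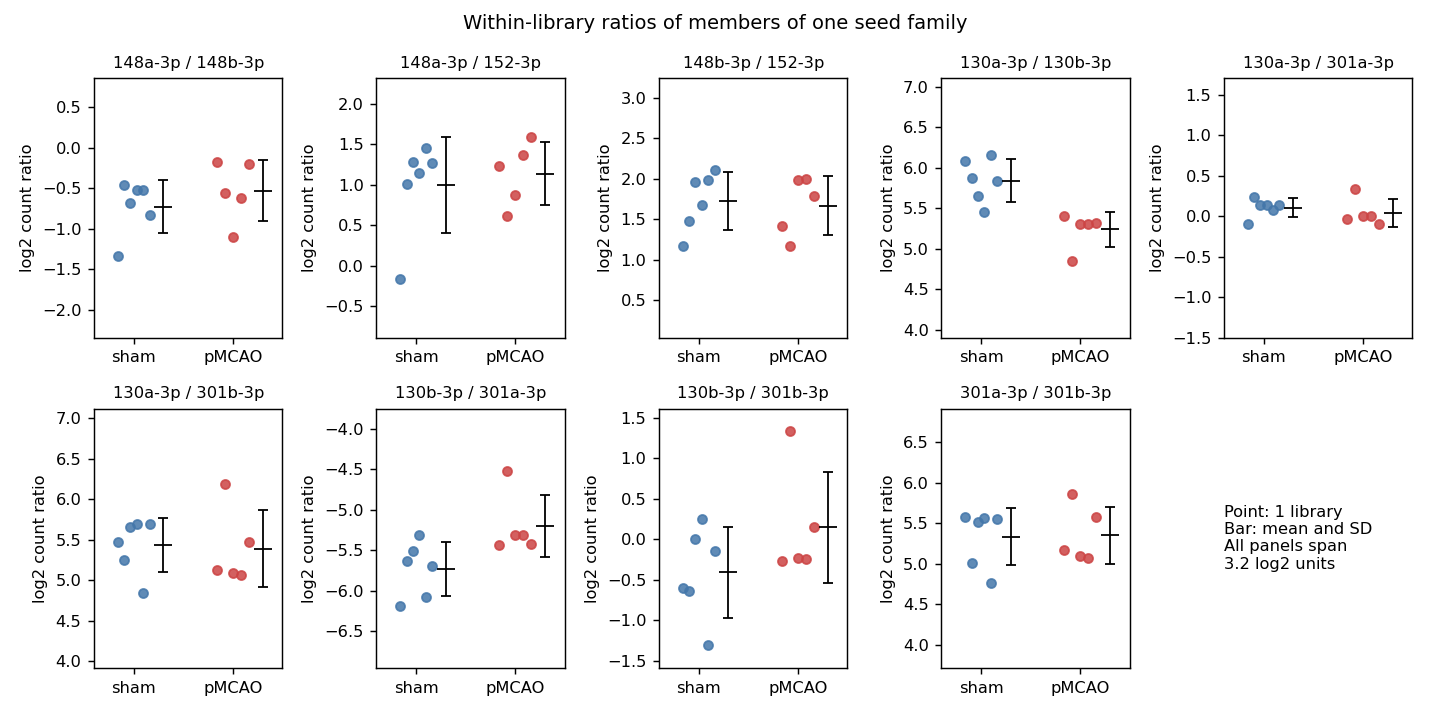
Each panel shows the log2 count ratio of 1 pair of members of the same family, with 1 point for each sham (blue) and pMCAO (red) library and the mean and SD beside them, on axes of equal span. The panel of miR-130a-3p to miR-130b-3p is the one whose groups do not overlap, with sham at 5.45 to 6.15 and pMCAO at 4.85 to 5.40.

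Each hairpin yields a 5p and a 3p arm, of which one is usually kept by Argonaute and the other degraded. The 3p arm was the abundant one for 6 of the 7 hairpins, with 5p shares in sham between 0.680% for miR-301b and 13.4% for miR-148b. The hairpin of miR-130b was the exception. Its 5p arm, whose seed differs from that of the family, is shown here for comparison with the 3p arm.

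miR-130b-5p: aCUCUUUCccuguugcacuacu

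In sham the 5p arm had 231 counts against 113 of the 3p arm (67.2%), and in pMCAO 171 against 114 (60.0%). The level of miR-130b-5p was 23.7 ± 7.20 CPM in sham and 28.8 ± 4.11 CPM in pMCAO, and its log2 fold change of 0.29 did not pass (SE 0.24, 95% interval -0.23 to 0.80, edgeR adjusted p = 0.537). The log2 ratio of 3p to 5p differed by 0.47 between the groups, with an interval of -0.25 to 1.30 and an exact permutation p of 0.236 (0.708 adjusted over 3 hairpins). The difference seen for miR-130b-3p was thus not shown to be unequal between the arms.

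The other opposite arms were near the limit of detection or did not differ beyond their spread. miR-148b-5p was at 25.5 ± 2.46 CPM in sham and 28.6 ± 5.82 CPM in pMCAO (log2 fold change 0.16, SE 0.18, edgeR adjusted p = 0.666). miR-130a-5p was at 7.51 ± 1.80 and 8.83 ± 4.29 CPM (log2 fold change 0.22, SE 0.32, edgeR adjusted p = 0.752). The ratio of 3p to 5p differed by -0.14 for miR-148b and by 0.08 for miR-130a, both with an exact permutation adjusted p of 0.792. miR-148a-5p (0 to 5 counts in a library), miR-152-5p (0 to 7), miR-301a-5p (1 to 14) and miR-301b-5p (0 to 1) did not pass the filter. Of these, miR-152-5p had a mean of 1.57 CPM in sham and 3.73 CPM in pMCAO (exact permutation p = 0.0238, two-sided and unadjusted), a level at which a library holds a few counts.

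To see which miRNAs varied most like each member over the 11 libraries, the SD of the log2 ratio to every other miRNA tested was taken, where a small SD means a near-constant ratio. The comparison is a description, and the points share library depth and composition. Counting noise also widens the SD where counts are few, so likeness depends in part on abundance. miR-130a-3p and miR-301a-3p were the most alike, with an SD of 0.14, smaller than that of either with any of the 472 miRNAs outside the families, although their hairpins lie on different chromosomes. Outside the families, miR-130a-3p was most like miR-378a-3p, miR-93-5p and miR-99b-3p (SD 0.15 to 0.18), and miR-301a-3p most like miR-203-3p, let-7f-2-3p and miR-93-5p (0.17 to 0.18). miR-130b-3p was most like miR-17-5p, miR-92b-5p and miR-126a-5p (0.30 to 0.32), and miR-301b-3p most like miR-203-3p, let-7f-5p and miR-28a-5p (0.20 to 0.22).

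In the miR-148/miR-152 family, miR-148b-3p was most like miR-350-3p, miR-22-3p and miR-106b-5p (SD 0.16 to 0.18). miR-148a-3p was most like miR-467b-5p, miR-7b-5p and miR-137-3p (0.20 to 0.24), and miR-152-3p most like miR-1983, miR-378c and miR-29a-3p (0.33 to 0.34). Members of this family were less alike among themselves than miR-130a-3p and miR-301a-3p were, with an SD of 0.34 for miR-148a-3p to miR-148b-3p, 0.48 for miR-148a-3p to miR-152-3p and 0.34 for miR-148b-3p to miR-152-3p. Ranked among the 472 miRNAs outside the families, miR-148b-3p would stand at place 75 in likeness to miR-148a-3p and at place 3 in likeness to miR-152-3p. In likeness to miR-148b-3p, the same 2 members would stand only at places 169 and 162. Pairs of the miR-130/miR-301 family other than miR-130a-3p with miR-301a-3p had an SD of 0.33 to 0.63, the highest for miR-130b-3p to miR-301b-3p. Those 2 also had the fewest counts. In sham, counting alone would give them a coefficient of variation of 23.0% and 20.3%, beside 3.05% for miR-130a-3p and 3.18% for miR-301a-3p. The part of counting noise in these SDs was not tested.

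The scaling of the libraries bears on every level and fold change, though not on the ratios. With total counts alone in place of TMM, the median over all 479 miRNAs moved from 0.00 to 0.18 on the log2 scale, and 73.9% of them were above 0. Under that scaling edgeR called 2 members, miR-130b-3p (0.96, adjusted p = 0.0425) and miR-301a-3p (0.45, adjusted p = 0.0380). Relative to the shifted median their fold changes were 0.79 and 0.28, close to the values under TMM. The groups of miR-130b-3p did not overlap under any of the 5 scalings tried, and those of miR-301a-3p were separate under total counts alone.

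**Figure D4:**
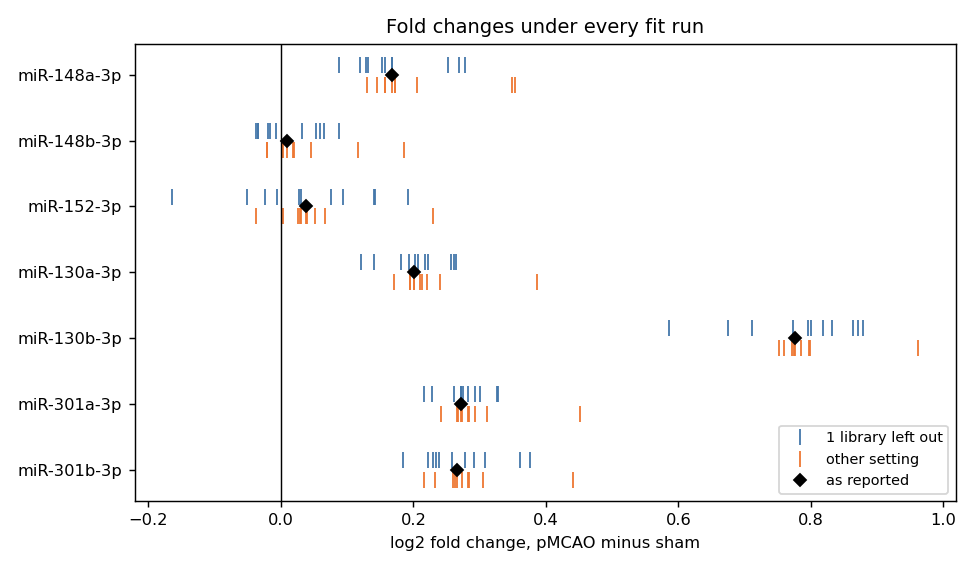
For each member, the black diamond marks the reported log2 fold change of pMCAO minus sham, blue marks the 11 fits that each leave out 1 library and orange marks the other settings. miR-130b-3p stays between 0.59 and 0.96 and miR-301a-3p between 0.22 and 0.45, while the marks of miR-148b-3p and miR-152-3p fall on both sides of 0.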

How the data were processed

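Small RNA from mouse cortex was sequenced on an Ion Torrent instrument, and 1 table per library was deposited. The values deposited by the authors are raw counts for 1907 mature miRNA names. Before that they selected read lengths of 20 to 30 bp, aligned to mm10 with Bowtie and counted on miRBase 21 with HTSeq. The settings of these tools are not given in the sources used here. Reads outside the length window are lost before counting, and reads without molecular identifiers keep their PCR copies, so the Poisson interval covers counting error only. Other intervals rest on the spread between libraries.

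Libraries were grouped by label as sham (n = 6) or pMCAO (n = 5). In R 4.3.3, edgeR 4.0.16 filterByExpr (minimum count 10, total 15) kept 479 names, which were normalized by TMM and tested by glmQLFit and glmQLFTest without covariates at an adjusted p of 0.05. SE was computed as the log2 fold change over the root of the F statistic. Permutation tests used log2(CPM + 1) or log2 ratios with 0.5 count added, over all arrangements of the libraries (smallest p 0.00216), and their intervals come from inverting the test. The 25 pairs of libraries of one group all differed beyond sampling noise (chi-square per degree of freedom at least 18.3).

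The text names the members, their 5p arms, other names with the shared 6 bases, hairpins within 10 kb and the 3 miRNAs most like each member. The members, this rule and the marker lists (neurons, oligodendrocytes, myeloid cells, lymphocytes, erythrocytes, endothelial cells, mural cells with fibroblasts, from general knowledge) were chosen with earlier results of these data known. Positions are from GENCODE vM21, with introns numbered on the transcript ending in 201, and sequences from RefSeq. Alternatives were other scalings, filters, thresholds and pseudocounts, robust edgeR, DESeq2 1.42.0, the replicate number as a block, and leaving out each library. The scripts were tested on simulated counts.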

Additional observations from a re-analysis of the deposited data

Results flagged for a closer look

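In each group, a library was singled out where its gap to the nearest of the others was too large a part of the group's range by Dixon's 95% criterion. Chance gives about 1 such library in 20 groups, or 2.9 in the 58 groups of values checked, and 11 were found. Of these, 5 were in pMCAO replicate 2, and values from 1 library are not independent of each other.

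On the log2 scale, the ratios in pMCAO replicate 2 were 4.85 for miR-130a-3p to miR-130b-3p (next library 5.31), 0.33 for miR-130a-3p to miR-301a-3p (next 0), -4.52 for miR-130b-3p to miR-301a-3p (next -5.31) and 1.34 for miR-130b-3p to miR-301b-3p (next 0.15). The fifth value was the summed CPM of the neuron list, at 18.1 against 18.2 in the next library. miR-148a-3p was low in pMCAO replicate 3, at 6.46 in log2(CPM + 1) against 6.89 in the next. The ratio of miR-148a-3p to miR-152-3p was -0.16 in sham replicate 1, against 1.01 in the next sham library, and the erythrocyte sum of the same library was 12.4 against 8.09.

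miR-130a-5p was high in sham replicate 4, at 3.59 in log2(CPM + 1) against 3.10. The oligodendrocyte sum was low in sham replicate 4, at 12.1 against 12.3, and the lymphocyte sum low in sham replicate 5, at 13.4 against 13.6.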

How the results depend on the processing

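The number of members called was 0 under every alternative but total counts alone, where it was 2 (miR-130b-3p, 0.96, and miR-301a-3p, 0.45), and an adjusted p under 0.1, where it was 1 (miR-130b-3p). It was 0 in each of the 11 fits that leave out a library (lowest 0, highest 0). Over those fits the log2 fold change ran from 0.0871 to 0.278 for miR-148a-3p, -0.0382 to 0.0870 for miR-148b-3p, -0.164 to 0.193 for miR-152-3p, 0.121 to 0.264 for miR-130a-3p, 0.585 to 0.878 for miR-130b-3p, 0.216 to 0.327 for miR-301a-3p and 0.184 to 0.376 for miR-301b-3p. The log2 ratio differences ran from 0.0739 to 0.337 (miR-148a-3p to miR-148b-3p), -0.0979 to 0.266 (miR-148a-3p to miR-152-3p), -0.172 to 0.0643 (miR-148b-3p to miR-152-3p), -0.681 to -0.506 (miR-130a-3p to miR-130b-3p), -0.142 to -0.0347 (miR-130a-3p to miR-301a-3p), -0.249 to 0.0317 (miR-130a-3p to miR-301b-3p), 0.364 to 0.619 (miR-130b-3p to miR-301a-3p, past the threshold without sham replicate 4), 0.257 to 0.684 (miR-130b-3p to miR-301b-3p) and -0.107 to 0.0912 (miR-301a-3p to miR-301b-3p). For 3p to 5p they ran from -0.258 to 0.00419 (miR-148b), -0.164 to 0.221 (miR-130a) and 0.229 to 0.607 (miR-130b). With no filter miR-148b-3p was -0.0214. With 5 counts added, miR-301a-3p to miR-301b-3p was -0.0309, miR-130a-3p to miR-130a-5p was -0.0677 and miR-130b-3p to miR-301a-3p passed at 0.467 (adjusted p = 0.0390, exact permutation test). With the replicate block, miR-148b-3p was -0.0215, miR-152-3p -0.0378, miR-148b-3p to miR-152-3p 0.0146, miR-130a-3p to miR-301b-3p 0.00338, and miR-130a-3p to miR-130b-3p -0.604 but no longer past the threshold, which 5 pairs cannot reach (smallest p 0.0625). No label says what a number marks. To check for pairing, the deviations of each library from its group mean, taken for each miRNA, were correlated between the groups. These deviations correlated between -0.0768 and 0.228 for same-numbered libraries, over 0.1 in 3 of 5 pairs. Only 1 of 5 correlated best with its own number, so the numbers were not taken to pair the libraries. The causes of these changes were not tested. Over all miRNAs, calls numbered 34, and 44 with total counts alone, 45 with DESeq2, 22 with the block, 18 of 406 with at least 10 counts in every library (which leaves miR-130b-3p untested) and 16 to 36 with a library left out. Thinning every library to the smallest total, chosen after seeing the data, gave 19 calls of 425 and 0.76 for miR-130b-3p (edgeR adjusted p = 0.213). Depth limits miR-130b-3p and miR-301b-3p most, with as few as 9 and 10 counts in a library.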
